A study of Peromyscus maniculatus with 16 samples.

Results

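Prss35 is 1 of the 16910 gene symbols in the liver count table of deer mice (P. maniculatus) on high fat diet (HFD), and 1 of the 12639 that passed the filter on low counts. The gene was chosen by its counts in the animals on HFD against those on regular diet, so its difference between these groups is described here and carries no p-value. Livers of 16 animals were sequenced, all of them 10 months old and 28 weeks into the feeding by their labels. The control group (C) held 6 males on regular chow. The HFD, with 58% of its kcal from fat, was given to the other 10 animals, which histology divided into 5 males without steatosis (NS) and 5 animals with steatosis (S), 3 of them female and 2 male. The HFD also held sucrose. All were outbred animals of 2 stocks, BW (13 animals) and SM2 (3 animals, 1 in each group and all male), and animals are named here by their own numbers. The paper's methods name only the BW stock. The labels describe every library as a separate biological replicate.

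Prss35 encodes a secreted member of the trypsin-like (S1) family of serine proteases. The serine of the catalytic triad is replaced by threonine, so the protein is classed as protease-like and whether it cuts proteins is less settled than for its relatives. It is best known from the ovary, where it is expressed around ovulation together with its closest relative Prss23, and in liver cancer it has been described as processed by proprotein convertases and as acting on neutrophil chemokines. The lists of genes set beside it therefore hold the proteases, convertases, inhibitors and chemokines of liver, its neighbours along the chromosome, and markers of the cell types that a liver sample can hold.

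The libraries held 4640733 to 11349971 counts, with 6374518 to 11349971 in C, 7336900 to 9362184 in NS and 4640733 to 10892425 in S. Levels are given as CPM, the counts of a gene scaled to a common library size. The 9 hepatocyte markers in the table had a summed level between 51380 and 103500 CPM in every animal, as the liver label requires. A pair of S animals stood apart from the others. The male 36016 had a Col1a1 level of 2060 CPM, against at most 17.0 CPM in every other animal, and the female 35990 had an Mmp12 level of 99.8 CPM, against at most 1.13 CPM elsewhere. Results that rest on them are given with and without them. A level measured in whole liver cannot tell fewer cells of a type from less RNA per cell.

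In the chow-fed animals Prss35 was low. The SM2 animal 10876 had 0 counts in a library of 10835244 counts. A count of 3 there would be 0.295 CPM, and the exact 95% Poisson interval of its 0 reached 0.363 CPM. The BW animals had 3 counts (35972), 13 counts (35998), 30 counts (35975), 36 counts (36001) and 61 counts (36007). After normalization by TMM, which corrects the library sizes for a few very abundant genes, these were 0.433, 2.03, 4.16, 3.42 and 6.77 CPM. The mean over C was 2.80 ± 2.53 CPM (SD, n = 6), with an SD nearly as large as the mean. The counting interval of 36007, 5.18 to 8.69 CPM, lay above that of 35998, 1.08 to 3.48 CPM, and these 2 animals were therefore apart by more than counting error, which is all that such exact Poisson intervals (95%) cover.

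On HFD, Prss35 had between 111 and 735 counts. In NS the counts were 242 (the SM2 animal 10865), 111 (35930), 277 (35937), 735 (35963) and 608 (35987). Their normalized levels were 30.5, 13.5, 37.6, 93.7 and 60.0 CPM, averaging 47.1 ± 31.0 CPM (SD, n = 5). In S the counts were 351 (the SM2 animal 10880), 334 (35955), 121 (35982), 277 (35990) and 321 (36016), which gave 42.8, 29.1, 22.4, 26.4 and 60.3 CPM, averaging 36.2 ± 15.5 CPM (SD, n = 5). The highest and the lowest HFD animals, 35963 and 35930, both belonged to NS, and they were 6.96-fold apart, against 2.69-fold between the extremes of S.

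No HFD animal overlapped a C animal. The lowest HFD animal, 35930, had a counting interval of 11.1 to 16.2 CPM, above the 5.18 to 8.69 CPM of the highest C animal, and the ratio of these 2 levels was 1.99. Leaving out each animal in turn gave ratios of 1.99 to 3.31. Among the 12639 genes tested, 22 (0.174%) had every HFD animal above every C animal, and the choice of Prss35 placed it among them. The order of the HFD animals was less certain than their distance from C. The counting intervals of 10865, 35955 and 35990 overlapped one another, and that of 35982 overlapped those of 35955 and 35990. The interval of 35937 overlapped those of 10865 and 10880, and those of 35987 and 36016 overlapped each other. Only 35963 lay above and 35930 below all other HFD animals by more than counting error.

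**Figure D1:**
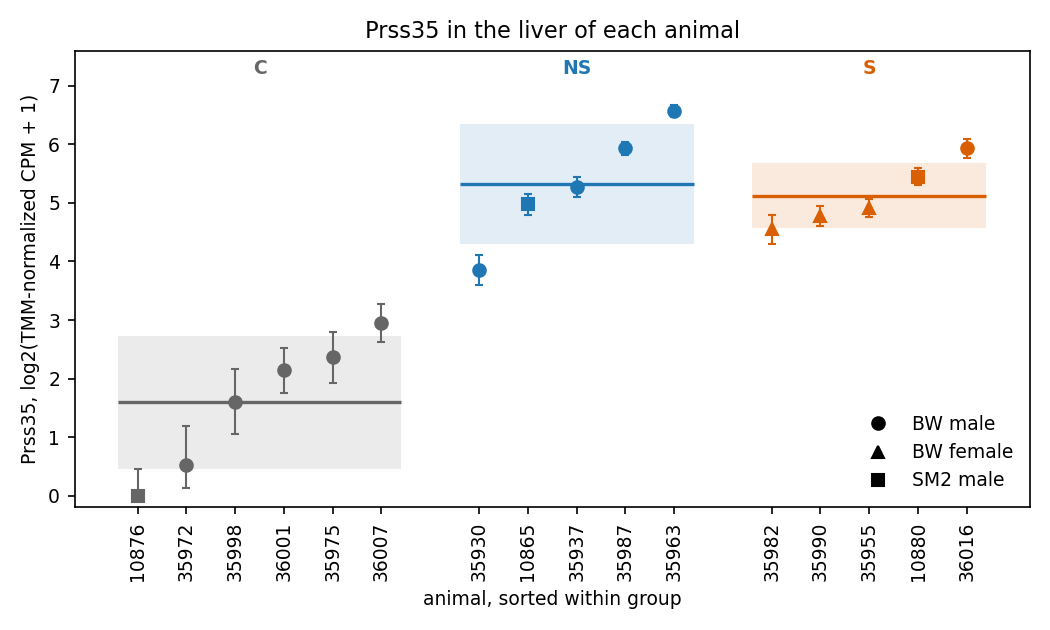
Level of Prss35 in each of the 16 livers as log2(TMM-normalized CPM + 1), with animals sorted within the groups C, NS and S, the symbol giving stock and sex. Bars are exact 95% Poisson intervals of the count, lines are group means and shaded bands 1 SD (n = 6, 5 and 5). The C animals lie between 0 and 2.96, and the HFD animals between 3.85 and 6.57.

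On the log2 scale, Prss35 was 4.05 ± 0.66 (SE) above C in NS, a fold of 16.6 with a 95% interval of 6.37 to 43.3. In S it was 3.67 ± 0.65 above C, a fold of 12.7 with an interval of 4.93 to 33.0. The 10 HFD animals together were 3.86 ± 0.62 above C, a fold of 14.5. These comparisons share the 6 C animals. Because the difference from C chose the gene, these folds can be too large, and the intervals need not keep their 95% coverage. They are given as descriptions. Ranked by log2 fold change among 12639 genes, Prss35 stood at place 11 in NS against C, 134 in S against C and 22 in HFD against C. Called genes, those with an adjusted p-value under 0.1 and a fold of at least 2, numbered 6 higher in NS against C (0.0475% of the genes tested), 391 higher in S against C (3.09%) and 66 higher in HFD against C (0.522%). Membership of Prss35 in these sets follows from how it was chosen, and nothing is read from it.

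Leaving out either animal that stood apart kept the direction. Without 36016 the log2 fold change in S against C was 3.42, and without 35990 it was 3.77. Without 10876, the C animal with 0 counts, it was 3.39 in S against C, and 3.78 in NS against C. The difference between S and NS was smaller than its error. S was 0.38 ± 0.60 below NS on the log2 scale, with an interval of -1.65 to 0.89, that is from 0.319 to 1.85 times the level in NS, and with males alone S was 0.13 ± 0.82 above NS. Only 1 gene (0.00791%) was called in S against NS, Ugt2a3, a UDP-glucuronosyltransferase.

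Stock and sex were not used to choose the gene and were tested. With the group taken into account, Prss35 was 0.66 ± 0.63 lower in SM2 than in BW animals on the log2 scale (edgeR's quasi-likelihood test, adjusted p = 0.531), with an interval from 0.251 to 1.61 times the BW level. The log2 value was -0.16 without 10876 and -1.45 without 10880, and it was not called in either case. Over all genes, 1370 (10.8%) were called between the stocks. Side by side, the SM2 animals went from 0 counts in C to 30.5 CPM in NS and 42.8 CPM in S. With the C animal put at 3 counts, these are 103-fold and 145-fold higher. These folds leave out the counting error of the HFD animals and are no strict bounds, since the 95% interval of the C animal reached 3.69 counts. The BW means went from 3.36 ± 2.38 CPM (SD, n = 5) in C to 51.2 ± 34.1 CPM in NS (n = 4) and 34.6 ± 17.4 CPM in S (n = 4), ratios of 15.2 and 10.3. Each group had 1 SM2 animal, so the change with diet within SM2 has no replicate and its difference from BW was not tested.

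Within S, the 3 females had 29.1, 22.4 and 26.4 CPM, a mean of 26.0 ± 3.37 CPM (SD, n = 3). The 2 males had 42.8 and 60.3 CPM, a mean of 51.5 ± 12.4 CPM (SD, n = 2). Both males were thus above all females, but the log2 difference of -0.98 ± 0.83 was not called (edgeR's quasi-likelihood test, adjusted p = 0.716), and its interval ran from -2.75 to 0.78. One of the 2 males was the SM2 animal and the other was 36016, the animal with the high Col1a1 level, so sex, stock and that library cannot be told apart in this comparison. Of all genes, 49 (0.388%) were called between the sexes in S. Across the 7 HFD males the level ran from 13.5 to 93.7 CPM, a range that holds all 3 females.

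No other gene of the Prss name was called between diets in the main fit, which leaves stock out. The table holds 33 other symbols that begin with Prss, of which 13 had 0 counts in every animal, 20 had a count somewhere and 11 passed the filter. None of the 11 was called in NS against C, S against C or S against NS by edgeR or by DESeq2, and 1, 1 and 0 of them had an unadjusted p under 0.05, where 9 (0.0712%), 513 (4.06%) and 1 of all genes were called. Under 4 other settings (stock as covariate, BW animals alone, without 10880 or without 35990) 1 of the tested Prss genes was called in S against C. Counts of most of these genes were low, which limits what could be detected. Prss41 reached 472 counts in an animal and Prss16 reached 166, while Prss27 had at most 6. Prss53, which encodes polyserase-3, had log2 fold changes of -1.91 ± 0.72 in NS against C (edgeR adjusted p = 0.523) and -1.95 ± 0.72 in S against C (adjusted p = 0.117). In HFD against C Prss53 stood at -1.93 ± 0.58 and narrowly missed the threshold (edgeR adjusted p = 0.108). The levels of Prss53 were 0.295 to 1.11 CPM in C, 0.0987 to 0.255 CPM in NS and 0 to 0.477 CPM in S.

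Prss23, the closest relative of Prss35, overlapped between all 3 groups. It was measured at 0.759 to 10.3 CPM in C, 0.252 to 3.36 CPM in NS and 0.556 to 10.9 CPM in S. Its log2 fold change was -0.79 ± 0.79 in NS against C (edgeR adjusted p = 0.837) and 0.57 ± 0.75 in S against C (adjusted p = 0.682). The highest level was that of 35990, the female with the high Mmp12 level, and the next was that of the C animal 36007.

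Between the stocks, 5 of the 11 Prss genes were called, against 10.8% of all genes. Prss8, the membrane-anchored protease prostasin, was 3.61 ± 0.74 higher in SM2 on the log2 scale (edgeR adjusted p = 0.00392), with 6.40, 0.252 and 3.17 CPM in the 3 SM2 animals and 0 to 0.849 CPM in BW. Prss50 was 3.12 ± 0.97 higher (adjusted p = 0.0385), with 0.787, 0.882 and 6.46 CPM in SM2 animals and 0 to 2.64 CPM in BW, where 35975 lay above 2 of the 3 SM2 animals. Prss8 was not called without 10876 (2.58, adjusted p = 0.112), and Prss50 was not called without 10880 (0.78, adjusted p = 0.71) or among males alone (1.73, adjusted p = 0.26). Prss16, the thymus-specific serine protease, had 0 counts in all 3 SM2 animals and 50 to 166 counts in each of the 13 BW animals. Prss41, known from testis, likewise had 0 counts in SM2 and 60 to 472 counts in BW. Put at 3 counts in each SM2 library, these are levels at least 30.5-fold and at least 89.6-fold lower in SM2. Reads of both stocks were aligned to 1 P. maniculatus genome and only unique alignments were kept. Absent RNA and reads that did not align uniquely would both give 0 counts, and which of them holds was not tested. Prss32 was also called lower in SM2 (adjusted p = 0.0133), but it had at most 12 counts in any animal. Prss35 itself was measured in both stocks, with 242 and 351 counts in the SM2 animals on HFD. Its 0 in the SM2 animal on chow therefore differs from the 0 of Prss16 and Prss41, which had no count in any SM2 animal.

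**Figure D2:**
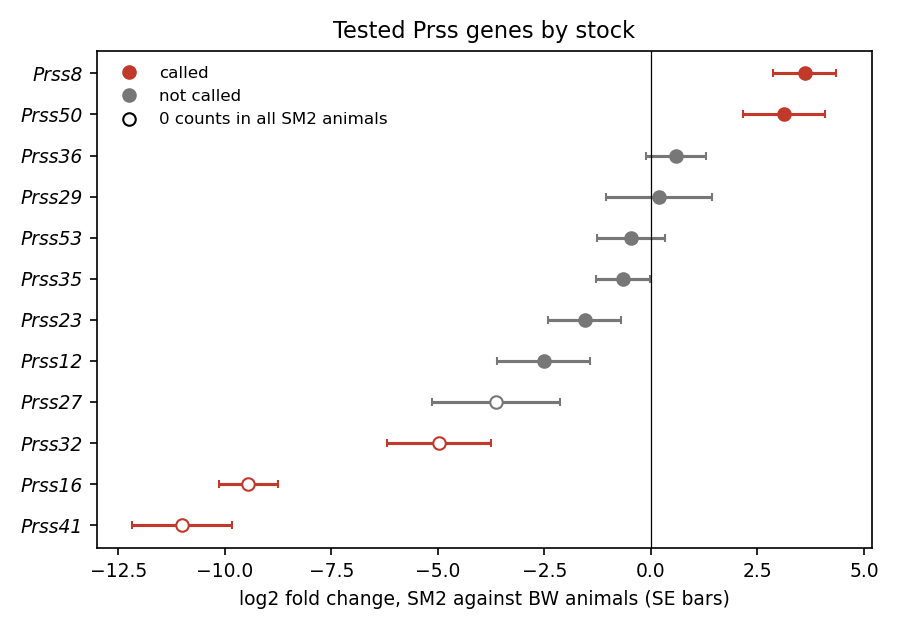
Log2 fold change of SM2 (n = 3) against BW (n = 13) animals, with the group as covariate, for Prss35 and the 11 other Prss genes that were tested; bars are SE. Open symbols are genes with 0 counts in all SM2 animals, whose fitted value depends on the prior count and is no bound. Prss35 lies at -0.66 and was not called, whereas Prss16 and Prss41 lie farthest to the left.

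Next to Prss35 along the chromosome lies Me1, which encodes the cytosolic malic enzyme that supplies NADPH for fatty acid synthesis. The order of genes was taken from the RefSeq annotation of another assembly, HU_Pman_BW_mat_3.1, and no positions are given because the counts rest on HU_Pman_2.1. Me1 had levels of 105, 216, 524, 169, 266 and 474 CPM in the C animals 10876, 35972, 35975, 35998, 36001 and 36007. In NS they were 597 (10865), 574 (35930), 884 (35937), 989 (35963) and 958 (35987) CPM. In S they were 834 (10880), 621 (35955), 1040 (35982), 297 (35990) and 1190 (36016) CPM. Every NS animal was above every C animal, while 35990 of S lay within the range of C. On the log2 scale Me1 was 1.45 ± 0.38 higher in S (edgeR's quasi-likelihood test, adjusted p = 0.0476) and 1.45 ± 0.35 higher in HFD (adjusted p = 0.0596), and both were called. In NS against C it was 1.45 ± 0.38 higher and missed the threshold (adjusted p = 0.298). The call in S against C was lost without 36016 (log2 fold change 1.26, adjusted p = 0.105), and that in HFD against C without 35987, 35972 or 36001 (adjusted p = 0.106, 0.101 and 0.129) and in BW animals alone (adjusted p = 0.104). DESeq2 called Me1 in NS against C as well (adjusted p = 0.0322).

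In the full set of animals no other neighbour was called between diets. Of the 16 protein-coding genes on both sides of Prss35, 8 on each, 14 were in the table and 11 were tested. Me1 was the only one called in S against C and in HFD against C, with 4.06% of all genes called in S against C, and 0 of the 11 were called by edgeR in NS against C or S against NS (1 and 0 at an unadjusted p under 0.05, and 1 and 0 by DESeq2). On the other side of Prss35, Snap91 and Ripply2 did not pass the filter on low counts. Cyb5r4, the nearest tested gene there and a cytochrome b5 reductase, had log2 fold changes of -0.17 ± 0.17 in NS against C and -0.27 ± 0.17 in S against C. Beyond Me1, Rwdd2a stood at 0.54 ± 0.42 and 0.86 ± 0.42, and Pgm3, an enzyme of UDP-N-acetylglucosamine synthesis, at -0.15 ± 0.20 and 0.20 ± 0.20. Tbx18, a transcription factor gene with a log2 fold change of 3.97 ± 1.71 in S against C (adjusted p = 0.185), had counts in only 2 animals, 0.121 CPM in 35930 and 1.31 CPM in 36016.

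**Figure D3:**
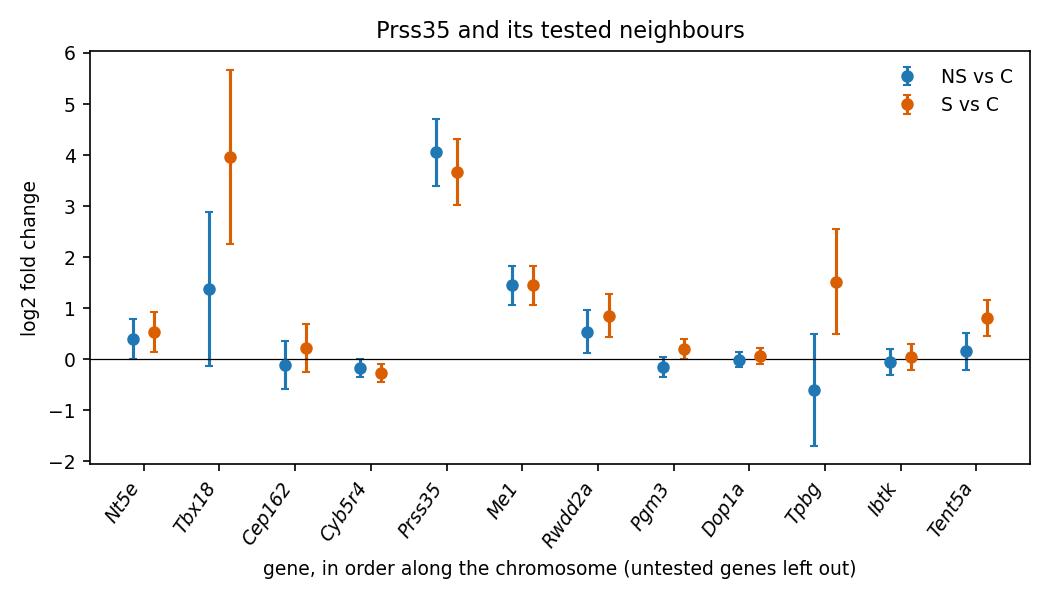
Log2 fold change in NS against C and S against C (SE bars) for Prss35 and its 11 tested neighbours, in their order along the chromosome. Prss35 stands at 4.05 and 3.67 and Me1 at 1.45 and 1.45; the values of Tbx18 are fitted against 0 counts in all C animals and are no bounds.

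Prss35 and Me1 also varied together from animal to animal. Over 16 animals, Pearson's r of their log2(CPM + 1) was 0.885, which placed Me1 at rank 4 of 12638 genes by likeness to Prss35. Such a pooled value holds the difference between C and HFD, which chose the gene, and all correlations here are descriptions over animals that share the same libraries and scaling. Among the 6 C animals r was 0.865 and Spearman's rho 0.886, with r = 0.761 without the 2 animals farthest from the median of Me1. Among the 10 HFD animals r was 0.546 and rho 0.588, with r = 0.479 without the 2 farthest animals and 0.482 to 0.690 when each animal was left out in turn. On HFD, Me1 ranked 378 of 12633 genes, so that many genes followed Prss35 more closely there. Among these was Dop1a, a neighbour 4 places from Prss35, with r = 0.727 and rho = 0.782. Its log2 fold change in HFD against C was 0.03 ± 0.13. With the group means taken off, the r of Me1 over all 16 animals was 0.718. The central 95% of genes ran from -0.497 to 0.477. Dop1a stood at 0.687 and Tent5a, a neighbour 8 places away, at -0.689 on this measure. The S female 35982 had a high Me1 level of 1040 CPM and a low Prss35 level of 22.4 CPM. It was the animal whose removal raised the r of Me1 on HFD the most.

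**Figure D4:**
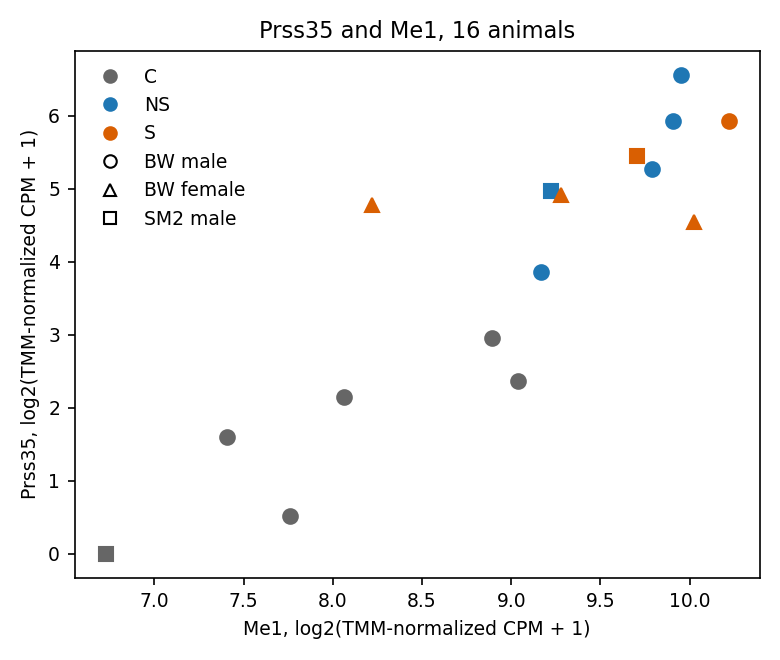
Levels of Prss35 and Me1 in the 16 animals, both as log2(TMM-normalized CPM + 1), with colour giving the group and symbol the stock and sex. The points run from 10876, with 0 counts of Prss35 and 105 CPM of Me1, to 35963 and 36016, and 35990 lies among the C animals on the Me1 axis only.

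The genes most like Prss35 over all 16 animals were led by Fads2 (r = 0.922), the delta-6 desaturase of polyunsaturated fatty acid synthesis. Fads2 had 448 to 728 CPM in C, 1290 to 1870 CPM in NS and 915 to 1700 CPM in S, with no overlap between C and HFD. Its log2 fold changes were 1.50 ± 0.17 in NS against C (edgeR adjusted p = 0.000901) and 1.25 ± 0.17 in S against C (adjusted p = 0.00363), both called under all 23 other settings. Pelp1 (r = 0.892), a coregulator of nuclear receptors, had log2 fold changes of only 0.41 ± 0.14 and 0.48 ± 0.14 in these comparisons. Apoa4 (r = 0.889), an apolipoprotein of triglyceride-rich particles, was 4.34 ± 0.74 higher in S against C (adjusted p = 0.0125) and stood at 3.45 ± 0.72 in NS against C (adjusted p = 0.136). After Me1 came Dnmbp (0.874), a Cdc42 exchange factor, Tnfrsf14 (0.874), a receptor of the TNF family, Lrp3 (0.855), of the LDL receptor family, and Gse1 (0.850). Among the HFD animals alone, the r of these 8 genes lay between 0.230 (Apoa4) and 0.734 (Tnfrsf14).

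Several genes ran against Prss35 over the 16 animals. The lowest r were those of Gcdh (-0.899), glutaryl-CoA dehydrogenase of lysine breakdown, Gnmt (-0.884), glycine N-methyltransferase, which uses up S-adenosylmethionine, and Uox (-0.854), urate oxidase. Gnmt fell by 2.19 ± 0.38 on the log2 scale in NS against C (edgeR adjusted p = 0.0494), a call lost without 35963, 35987, 35937 or 35972 (adjusted p = 0.195, 0.181, 0.154 and 0.112), and by 2.29 ± 0.38 in S against C (adjusted p = 0.0125). Gcdh and Uox stood at -0.61 ± 0.15 and -0.83 ± 0.21 in S against C, under the fold of 2 that a call needed. The fourth was Crispld2 (-0.847), which encodes a secreted cysteine-rich protein. Crispld2 had r = -0.783 and rho = -0.915 among the HFD animals alone, and r = -0.917 and rho = -0.943 among the C animals alone. The same animals chose the gene, so these values are no separate support for Crispld2. Its levels were 0 to 2.26 CPM, and it was not called in any diet comparison, with a log2 fold change of -1.15 ± 0.50 in HFD against C (adjusted p = 0.234).

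With each group's mean taken off, other genes led. Phospho1 (r = 0.814), a phosphatase of phosphocholine and phosphoethanolamine, Slc19a1 (0.800), the reduced folate carrier, Msln (0.756), mesothelin, Paqr7 (0.754), a membrane progestin receptor, and Brap (0.741) were closest to Prss35. Their log2 fold changes in S against C ran from -0.74 ± 0.24 (Slc19a1, edgeR adjusted p = 0.0799) to 0.27 ± 0.71 (Msln), all under the fold of 2. Lowest were Crispld2 (-0.830), Slc14a1 (-0.820), a urea transporter, and 5430427O19Rik (-0.818), but Slc14a1 had at most 1.08 CPM and 5430427O19Rik at most 1.70 CPM. Among the 10 HFD animals alone, C9orf72 (r = 0.932), the transcription factor gene Atf1 (0.905), the zinc finger gene Zkscan8 (0.897), Zcchc14 (0.871) and 2700081O15Rik (0.871) followed Prss35 most closely. Across the HFD animals these ran from 3.27 to 6.89 CPM (C9orf72), 25.1 to 37.8 CPM (Atf1), 0.606 to 6.12 CPM (Zkscan8), 9.46 to 17.9 CPM (Zcchc14) and 1.82 to 6.57 CPM (2700081O15Rik). In the C animals 4 of these 5 genes had an r below 0, from -0.131 (Zkscan8) to -0.623 (2700081O15Rik), and Atf1 stood at 0.440. With 6 animals the central 95% of all genes reached from -0.848 to 0.850, and these values lay inside that range.

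**Figure D5:**
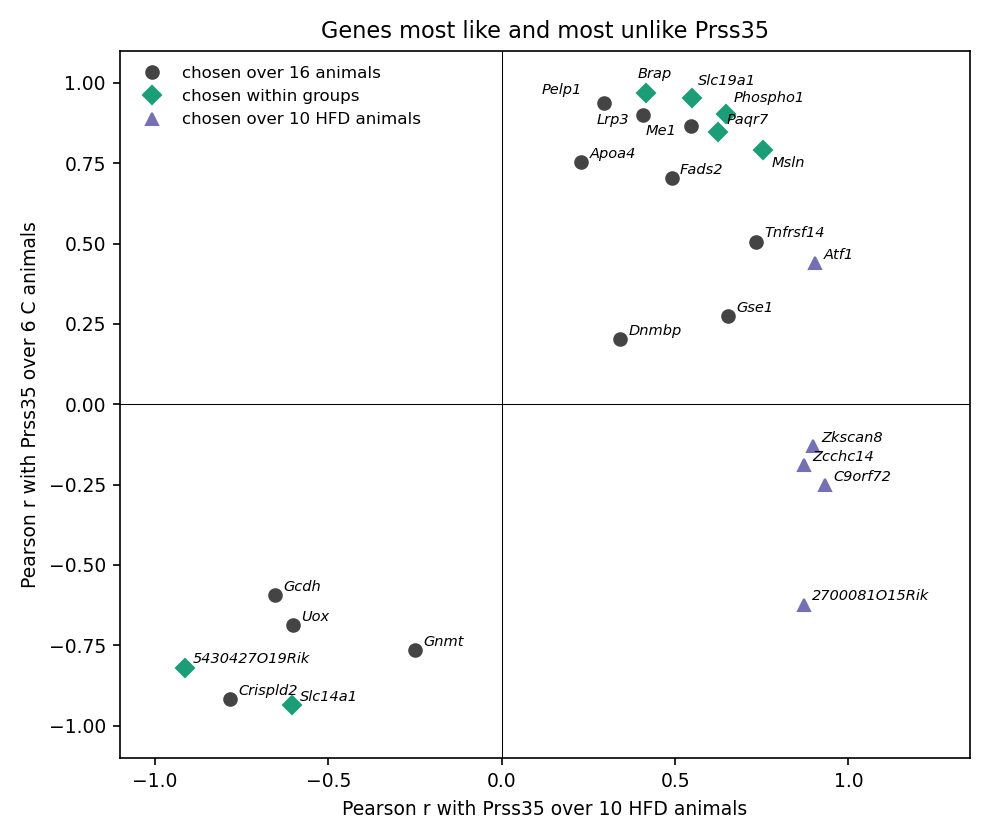
Pearson's r with Prss35 over the 10 HFD animals (horizontal) and over the 6 C animals (vertical) for the genes named by likeness, coloured by the set of animals that chose them. Me1 lies at 0.546 and 0.865 and Crispld2 at -0.783 and -0.917, whereas C9orf72, chosen on HFD, lies at 0.932 and -0.252.

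The relation of Prss35 to sequencing depth was examined across the HFD animals. Across the 10 HFD animals the count of Prss35 and the total count had r = 0.255 (two-sided permutation test, p = 0.491) and rho = 0.188 (permutation p = 0.6), with r = -0.0119 without the 2 animals farthest from the median total, 36016 and 35982. On TMM-normalized CPM r was -0.113 (permutation p = 0.729) and rho -0.273 (permutation p = 0.45). Adjusted over these 4 relations, every permutation p was 0.729.

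The counts of the gene lists in S against C stand beside 4.06% of all genes called, and 3.09% called higher. Of 25 tested S1 proteases of liver, coagulation and complement enzymes included, 0 were called higher and 1 lower, a share near that of all genes. The 1 was Hp, haptoglobin, a serine protease homologue without activity and an acute-phase protein, which fell by 1.36 ± 0.29 on the log2 scale (edgeR adjusted p = 0.0241). The median log2 fold change of the S1 list was 0.00 in S against C, beside 0.10 over all genes. Of 8 proprotein convertases only Pcsk5 was called in S against C (1.17 ± 0.34, adjusted p = 0.061), with 2.00 to 6.21 CPM in C and 4.80 to 11.8 CPM in S, and the call was lost without 35982, 36016, 35975, 36001 or 36007 (adjusted p = 0.115 to 0.131). Furin, the convertase with the most counts, stood at -0.03 ± 0.17. The median over the convertases was 0.57.

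Of 23 tested serpins and other protease inhibitors, only Serpine2 was called in S against C, where 4.06% of all genes were (3.95 ± 1.07, adjusted p = 0.05), through a level of 51.4 CPM in 36016. Without that animal it stood at 0.74 (adjusted p = 0.561), and the call was also lost without 35975 or 36007 (adjusted p = 0.111 each). The median of this list was -0.17. Of 23 matrix proteases and their inhibitors, 4 were called higher in S against C, beside 3.09% of all genes, and all of them were highest in 35990 or 36016. Mmp2, a gelatinase, was 4.10 ± 0.86 higher (adjusted p = 0.0222), with 24.7 CPM in 35990 and 50.9 CPM in 36016 and at most 2.30 CPM in the other animals. It stood at 3.01 without 36016 (adjusted p = 0.0646) and at 3.89 without 35990 (adjusted p = 0.0367), and both animals were not left out together. Mmp12, the macrophage elastase, was 7.02 ± 1.63 higher (adjusted p = 0.0325) with 99.8 CPM in 35990, and stood at 1.53 without that animal (adjusted p = 0.403) and at 2.30 among males alone (adjusted p = 0.267). Mmp14, a membrane-bound collagenase, was 1.59 ± 0.46 higher (adjusted p = 0.0599), a call lost without 36016, 35990, 35975, 36001 or 36007 (adjusted p = 0.109 to 0.162). Mmp13, a collagenase with 0 counts in every C animal, was called as well (adjusted p = 0.0792), a call lost in BW animals alone (adjusted p = 0.102) and without 36016 or any 1 of 10876, 35972, 35975, 36001 and 36007 (adjusted p = 0.104 to 0.133). It had 19 counts in 35990 and at most 3 in any other animal, and without that animal it did not pass the filter on low counts. The levels of Prss35 in 35990 and 36016 were 26.4 and 60.3 CPM, inside the range of the other HFD animals.

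Of 3 tested neutrophil chemokine genes and receptors, Cxcl1 was called lower in S against C (-3.88 ± 1.26, adjusted p = 0.0832). Both lists of this paragraph stand beside 4.06% of all genes called in S against C, in either direction. The paper, with counts scaled to Tbp and another test, reports no significant difference of Cxcl1 between the groups. Cxcl1 had 2.31 to 48.6 CPM in C, 0.271 to 92.9 CPM in NS and 0.371 to 6.87 CPM in S, and the call was lost in BW animals alone, in males alone and without 10876, 10880, 35982, 36016, 35955, 35975, 36001 or 36007 (adjusted p = 0.109 to 0.21). Of 6 tested neutrophil and monocyte markers, S100a8 and S100a9 were also called lower in S against C (-1.98 ± 0.52 and -1.77 ± 0.48, adjusted p = 0.0452 and 0.0497). They were not called among males alone (adjusted p = 0.16 and 0.122).

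Of the 13 genes that the study itself labelled as changed by diet, 12 were called in S against C, 6 in each direction, and 5 in NS against C. That list was chosen on these animals and is not independent evidence of its direction. Fads1, the delta-5 desaturase, was 1.61 ± 0.20 higher in NS (edgeR adjusted p = 0.00142) and 1.63 ± 0.20 higher in S (adjusted p = 0.00121). Ugt2a3 in S, at 29.7 to 82.4 CPM, lay below every C and every NS animal, and it was called lower in S against NS (-3.48 ± 0.45, adjusted p = 0.00651). Slc17a1, a phosphate and urate transporter, had 0.188 to 10.3 CPM in S, below every C and every NS animal, but was not called in S against NS (-4.01 ± 0.88, adjusted p = 0.252). Outside this list, 0 of 213 tested genes of all lists were called by edgeR in NS against C (19 at an unadjusted p under 0.05, and 2 by DESeq2), beside 0.0712% of all genes. In S against C 18 of the 213 were called, beside 4.06% of all genes.

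Lipid droplet genes and targets of PPAR-alpha, a fatty acid sensor, were set beside the 4.06% of all genes called in S against C. Of 13 lipid droplet and PPAR-gamma genes, Cd36, a fatty acid transporter (1.18 ± 0.27, edgeR adjusted p = 0.0294), and Pnpla3, a lipase of lipid droplets (1.98 ± 0.63, adjusted p = 0.0782), were called higher in S against C and 0 in NS against C (1 at an unadjusted p under 0.05, and 0 by DESeq2). Cd36 was not called among males alone (adjusted p = 0.186), nor Pnpla3 in BW animals alone or without 10876, 10880, 35982, 36016, 35975, 36001 or 36007 (adjusted p = 0.103 to 0.177). Of 17 PPAR-alpha targets 0 were called by edgeR in S against C (3 at an unadjusted p under 0.05, and 1 by DESeq2), and their median log2 fold change was -0.27.

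Markers of other cell types gave the following counts in S against C, in which 4.06% of all genes were called. Of 18 stellate and fibroblast markers, Col1a1 and Col1a2 were called higher and Dcn lower in S against C, with summed levels of 537.6 to 923.3 CPM in C, 354.1 to 771.1 CPM in NS and 487.4 to 3818 CPM in S. Without 36016, Col1a1 stood at -0.28 (edgeR adjusted p = 0.736) and Col1a2 at 0.49 (adjusted p = 0.352), while Prss35 stood at 3.42. Dcn (-1.05 ± 0.25, adjusted p = 0.0354) stood under the fold of 2 without 10880, 35982, 35972 or 35975. Of 9 hepatocyte markers 1, Apoa2, was called lower in S against C (-1.02 ± 0.24, adjusted p = 0.0325), and it stood under the fold of 2 without 10876, 35982, 36016, 35975, 35990 or 36001. Another of the 9, Apoa1, the main apolipoprotein of HDL, was called higher in HFD against C (1.15, adjusted p = 0.0391) and stood at 0.96 in S against C, and it is named after its values were seen. For the ovary and gonad list, the tissue in which Prss35 is best known, 12 genes were in the table and 4 were tested. Fshr, Cyp19a1 and Zp3 were at 0 in all animals, and Inhba, the activin subunit, was called higher in S against C (2.15 ± 0.55, adjusted p = 0.0427), a call lost without 36016 (adjusted p = 0.12). The summed level of that list was 3.32 to 7.97 CPM in C, 6.43 to 23.9 CPM in NS and 4.86 to 47.5 CPM in S. The highest sum was that of the male 36016. Inhba alone had 2.94 to 5.47 CPM in C, 3.64 to 21.4 CPM in NS and 2.58 to 45.0 CPM in S. Its 45.0 CPM in 36016 made up most of the highest sum, so the sum does not stand for the list as a whole. Of 10 lymphocyte markers, the B cell gene Cd79b was called higher in S against C (1.83 ± 0.51, adjusted p = 0.0554), a call lost among males alone and without 35955, 35975 or 36007 (adjusted p = 0.113 to 0.259). Pancreas acinar markers summed to at most 19.4 CPM, with Pnlip and Cpb1 at 0. No marker was called in the bile duct, endothelial, Kupffer cell, pancreas, mesothelium or adipocyte lists in S against C by edgeR, with 1, 1, 0, 0, 0 and 0 at an unadjusted p under 0.05 and 0 by DESeq2. Over the 10 HFD animals, r between Prss35 and the summed levels was 0.104 for hepatocyte, 0.208 for stellate, -0.412 for Kupffer cell and 0.631 for ovary and gonad markers. Over the 6 C animals the same r were 0.732, 0.0659, 0.324 and -0.688. The Kupffer cell and the ovary and gonad values thus had opposite signs on the 2 diets. So did those of lymphocyte (-0.166 on HFD and 0.381 in C) and pancreas markers (0.0188 and -0.627). Neutrophil and monocyte (0.479 and 0.657), mesothelium (0.39 and 0.807) and adipocyte markers (0.347 and 0.748) were positive on both. Bile duct (-0.12 and -0.262) and endothelial markers (-0.291 and -0.365) were negative on both. The part of these cell types in the Prss35 values was not tested beyond the animals left out.

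The study describes coordination of the transcriptome by Pc, the correlation across genes between a gene's r values in 1 group and those in another. On counts, the Pc of Prss35 was 0.0216 in S against C, -0.00873 in NS against C and -0.0446 in S against NS, with jackknife SEs over animals of 0.296, 0.292 and 0.196. The medians over all genes were 0.201, 0.102 and 0.174, and 23.9%, 25.7% and 12.9% of genes had a lower Pc. Leaving out each animal in turn moved Pc between -0.195 and 0.199 in S against C, between -0.147 and 0.246 in NS against C and between -0.0983 and 0.0874 in S against NS. On counts, the Pc of Prss35 was therefore within 1 SE of 0 in all 3 comparisons, and its sign turned when single animals were left out. For S against C this depended on the scale. There Pc was -0.146 (SE 0.118) on TMM-normalized CPM and -0.105 (SE 0.104) on CPM by total count, more than 1 SE below 0 and negative with every animal left out in turn (-0.19 to -0.0611 and -0.148 to -0.0411). On the same 2 scales it was -0.0526 (SE 0.352) and -0.0277 (SE 0.312) in NS against C, and 0.099 (SE 0.271) and 0.119 (SE 0.293) in S against NS. On TMM-normalized CPM the medians over all genes were 0.102 in S against C, 0.152 in NS against C and 0.181 in S against NS. On CPM by total count they were 0.105, 0.154 and 0.166. Both sets rose in the order of the averages that the paper reports, and the medians on counts did not. The scale of the study's Pc is not stated in its methods. On both CPM scales Pc covered 13434 genes in S against C and 13340 in NS against C. On counts it covered 13431 and 13336. For these comparisons the CPM numbers match those of the paper and the count numbers do not. For S against NS no scale gave a match. The order of medians over all genes does not tell which Pc of Prss35 is nearer to the study's own. That value is not given here.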

How the data were processed

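Liver RNA of 16 P. maniculatus was measured by RNA-seq. Per the labels and the study's methods, the authors aligned paired reads of a directional library kit to HU_Pman_2.1 with STAR 2.7.2, kept only unique alignments, counted them by gene with featureCounts (Subread) and deposited raw counts for 16910 symbols. The strand setting of the counting and the conversion to symbols are not given in the sources used here, so counts of overlapping genes, antisense genes and close paralogs such as the Prss genes are uncertain. All 16 columns were mapped to animals, and 0 lines named no gene. Counts of every pair of animals in a group differed beyond sampling noise (chi-square per degree of freedom of at least 23.56).

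The 12639 genes that reached 0.5 CPM in 1 animal or more were fitted in edgeR 4.0.16 (R 4.3.3, limma 3.58.1) by the quasi-likelihood test with TMM, all 16 animals in 1 fit. Calls needed a Benjamini-Hochberg adjusted p under 0.1, over all genes tested, and a fold of at least 2. Stock was tested with group as covariate, and sex within S. Levels are TMM-normalized CPM, and likeness is Pearson's r of log2(CPM + 1), from scipy 1.17.1, pandas 2.3.3 and numpy 2.4.6 (Python 3.11.15). Permutation tests used 100000 resamples. Figures were drawn with matplotlib 3.10.9. A count of 0 was taken to allow 3 counts, and intervals cover counting error only, since PCR duplicates are not removed by molecular identifiers.

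Prss35, the gene lists and the comparisons were chosen with earlier results of these data known. The named genes are Prss35, every tested Prss gene, up to 4 called genes and the most abundant gene of each list, and the genes highest or lowest by r (8 and 4 over 16 animals, 5 and 3 within groups, 5 over HFD animals). Fads1, Fads2, Apoa4, Gnmt and Me1 were followed in addition. A gene that this rule names is not reported here. The edgeR and correlation steps were tested on simulated data. Other settings tried were RLE size factors, the DESeq2 1.42.0 fit, a looser and a stricter filter, stock as covariate, BW or male animals alone, other pseudocounts, other scales for Pc, and each animal left out in turn. Sequences and positions were not analysed here.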

Additional observations from a re-analysis of the deposited data

Results flagged for a closer look

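Prss35 had no animal set apart within its group. Of 48 group and gene combinations examined, for 16 genes (Prss35, the 11 other tested Prss genes, Me1, Fads1, Fads2 and Apoa4), 12 had 1 animal whose gap to the next took up more of the group's range than Dixon's 95% critical value. Chance flags about 1 in 20 groups, and genes with few counts add to that. All values are TMM-normalized CPM.

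The SM2 animals made up 6 of the 12. In C, 10876 was highest for Prss8 at 6.40 (next 0.474) and for Fads1 at 258 (next 185). In S, 10880 was highest for Prss8 at 3.17 (next 0.375) and for Prss50 at 6.46 (next 0.262), and it was lowest for Prss16 at 0 (next 9.64). In NS, 10865 was highest for Prss29, an implantation serine proteinase, at 0.504 (next 0.136). Each group has a single SM2 animal, so its stock and the animal cannot be told apart within a group.

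Among the BW animals, the C animal 36007 had 10.3 for Prss23 (next 2.08) and 212 for Apoa4 (next 34.3), and it was also the highest C animal for Prss35. The NS animal 35963, the highest of all for Prss35, had 1650 for Apoa4 (next 520). The C animal 35975 had 2.64 for Prss50 (next 0.787). The C animal 36001 had 0.949 and the S animal 35982 had 1.48 for Prss29 (next 0.289 and 0.244).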

How the results depend on the processing

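The log2 fold changes of Prss35 from C kept their direction and moved by less than the spread between replicates under all 23 other settings. With each animal left out they ranged from 3.64 to 4.55 in NS against C, from 3.39 to 4.16 in S against C and from 3.58 to 4.36 in HFD against C. Over the same omissions S against NS ran from -0.63 to 0.03, SM2 against BW from -1.45 to -0.16 and female against male in S from -1.21 to -0.72, none of them called. Likeness to the leading gene ran from 0.905 to 0.938 over 16 animals (Fads2), from 0.74 to 0.864 within groups (Phospho1) and from 0.903 to 0.958 over HFD animals (C9orf72). For Phospho1 it moved to 0.692 when 4 in place of 1 was added to the CPM. The relation of Prss35 to total count changed sign on TMM-normalized CPM (r = -0.113) and missed the threshold on both scales.

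Counts of called genes over all lists moved with the setting. In NS against C, 5 were called, 8 by DESeq2 and 2 to 6 with an animal left out (2 without 35963, 35987 or 35937, 3 without 35972). In S against C, 30 were called and 19 to 33 with an animal left out (19 without 36016). In S against NS, 1 was called, 14 by DESeq2, 6 with stock as covariate, 6 in BW animals alone, 9 in males alone and 1 to 7 with an animal left out (7 without 10880, 3 without 36016, 2 without 35955 or 35990). The sign of Col1a1 in S against C turned without 36016 (-0.28). Over all genes, DESeq2 called 53 in NS against C, 240 in HFD against C, 71 in S against NS and 205 between the sexes in S, where edgeR called 9, 113, 1 and 49. The causes were not tested.

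No paired analysis was possible because the labels give the animals no numbers that tie the groups together. Precision is limited by counts of 0 to 61 for Prss35 in C, by 1 SM2 animal in each group, and by females in S alone. Sex could not be separated from stock and from 36016 in S.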

Other observations

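Of the 7860 genes with at least 20 counts in every BW animal, 2 had 0 counts in all 3 SM2 animals, and both were Prss genes, Prss16 and Prss41. No gene (0 of the table) had the reverse pattern, 0 counts in every BW animal and at least 20 in each SM2 animal. This search was made after the values of Prss16 and Prss41 were seen.

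Among the tested neighbours of Prss35 other than Me1, Nt5e, the ectoenzyme CD73, was called higher in SM2 animals (log2 fold change 1.05 ± 0.29, edgeR adjusted p = 0.0226) and Cep162, a centrosome protein gene, lower (-1.48 ± 0.44, adjusted p = 0.0301), 2 of 11 genes beside 10.8% of all genes. The call of Nt5e was lost without 10865 (adjusted p = 0.118) and without 35930, 35990 or 36001, where its log2 fold change was 0.98 to 1.00. That of Cep162 was lost without 10876 or 10880 (adjusted p = 0.124 and 0.164) and among males alone (adjusted p = 0.1).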
